A study of Mus musculus with 32 samples.

Results

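Chronic stress was compared with baseline in the amygdala of mice that had received 4-thiouridine (4sU), an analogue of the RNA base uridine. The libraries titled chronic stress with 4sU (4 libraries) were set against those titled baseline with 4sU (5 libraries), 9 of the 32 libraries of a study of the mouse brain that holds 26 amygdala and 6 auditory cortex libraries. All mice were wild type. In the chronic and the baseline 4sU group, 4sU at 100 mM in DMSO was injected stereotaxically into the amygdala 24 h before RNA was extracted from the amygdala of both sides. In 2 further groups, used here as background, the solvent DMSO was injected alone, at baseline (4 libraries) and after chronic stress (3 libraries). The strain, age and sex of the mice, the kind and length of the stress, and the number of mice behind a library are not stated in the labels, so the p-values measure only the spread between these libraries.

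4sU is taken up by living cells and built into the RNA they make, and alkylation of the extracted RNA makes the sequencer read a labelled uridine as a C in place of a T. The share of T positions read as C in the 3′ UTR of a transcript therefore grows with the fraction of its molecules made since the injection, while base-calling errors and sequence variants give a floor that DMSO mice show. The amygdala is a group of nuclei that processes threat and fear, and chronic stress acts on it through glucocorticoid hormones and through neuropeptides such as corticotropin-releasing hormone. Myelin-forming oligodendrocytes, their dividing precursors, microglia and astrocytes share the tissue with excitatory and GABAergic neurons.

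The 16 libraries of the 4 groups held between 16150316 and 17596612 exon counts each. The baseline 4sU libraries stood apart from the other 3 groups in how their reads lay on genes. The share of mapped reads inside annotated 3′ UTRs was 17.16, 16.44, 17.02, 16.87 and 16.76% in the baseline 4sU libraries and 18.70, 18.67, 19.98 and 20.29% in the chronic 4sU libraries, with no overlap. The difference of 2.56 percentage points had an exact two-sided permutation p of 0.0159, the smallest that the 126 splits of 9 libraries allow. The DMSO libraries lay at 18.2 to 18.8% at baseline and 18.5 to 19.0% after chronic stress, beside the chronic 4sU libraries. T positions covered per 3′ UTR read were likewise fewer in baseline 4sU (34.2 to 34.6) than in the chronic 4sU (37.0 to 37.2), baseline DMSO (36.7 to 37.1) and chronic DMSO libraries (37.1 to 37.3), and exon counts made up 43.0 to 43.9% of mapped reads against 40.5 to 40.9% in the other 11 libraries. Baseline 4sU differed from baseline DMSO in 8489 of 16096 genes (52.7%; edgeR's quasi-likelihood test, Benjamini-Hochberg adjusted p under 0.05). Stress and this property of the libraries cannot be told apart in a comparison with baseline 4sU alone, so the expression results of named genes below are also given against baseline DMSO, which differs from chronic 4sU in stress and in the injected agent. The same limit holds for every change in conversion between chronic and baseline 4sU. There the unlabelled DMSO libraries give only the floor and no other baseline.

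**Figure D1:**
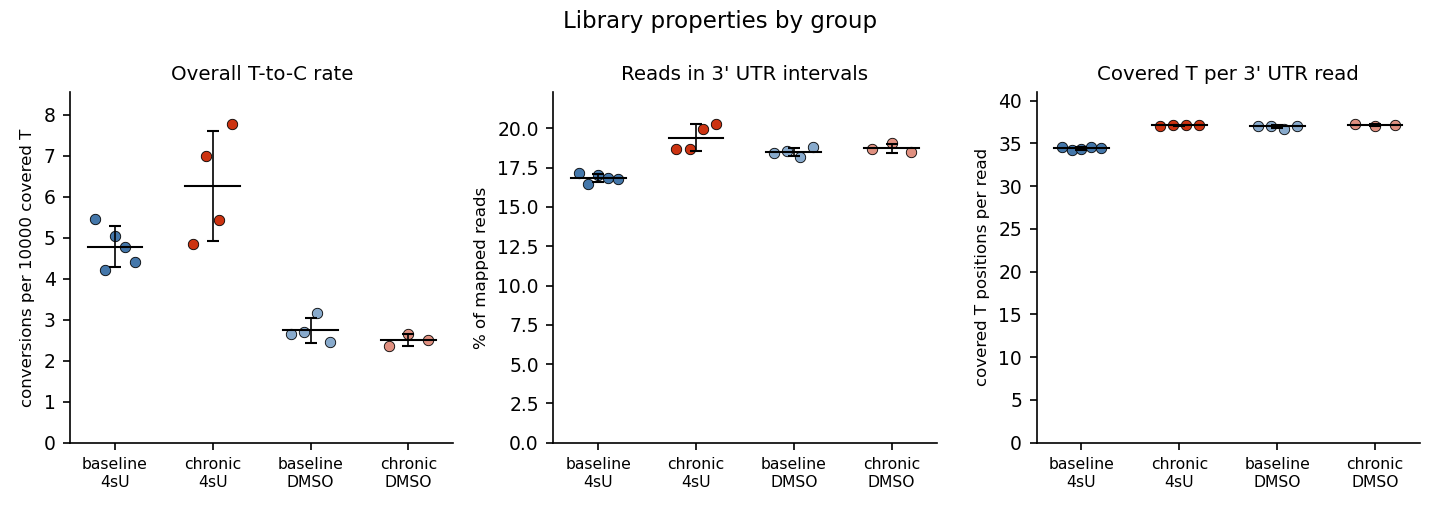
Library properties by group, with 1 point per library, the bar at the group mean and the error bar its SD; the y axes carry conversions per 10000 covered T positions, the percentage of mapped reads in 3′ UTR intervals, and covered T positions per 3′ UTR read. The conversion rate of the 4 chronic 4sU libraries (4.86 to 7.78) overlaps that of the 5 baseline 4sU libraries (4.22 to 5.46), while the 3′ UTR share of the baseline 4sU libraries lies below every other library.

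Labelling was detectable in both 4sU groups. The overall conversion rate was 5.46, 4.22, 5.05, 4.77 and 4.40 conversions per 10000 covered T positions in the baseline 4sU libraries and 4.86, 6.99, 5.44 and 7.78 in the chronic 4sU libraries. All 9 values lay above the floor in DMSO mice, which was 2.46 to 3.18 at baseline and 2.36 to 2.64 after chronic stress. Chronic libraries 2 and 4 were higher than all baseline 4sU libraries, and chronic libraries 1 and 3 lay within the baseline range. The means were 4.78 ± 0.50 (SD, n = 5) and 6.27 ± 1.35 (SD, n = 4), a difference of 1.49 that did not pass (exact two-sided permutation p = 0.0794). The share of 3′ UTR reads with a conversion, 1.48 ± 0.08% at baseline and 1.82 ± 0.26% after chronic stress (SD, n = 5 and 4), did differ by the same exact permutation test (p = 0.0317), as did the median rate over genes, 2.71 ± 0.19 against 3.29 ± 0.34 per 10000 (p = 0.0317). The overall rate and these other measures therefore fell on different sides of the threshold.

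Over single genes, 606 of 8462 (7.16%) had a higher conversion rate in baseline 4sU than in baseline DMSO libraries, and 1198 (14.2%) had a higher rate in chronic 4sU than in chronic DMSO libraries (edgeR's quasi-likelihood test, adjusted p under 0.05); the difference between these counts was not tested. Scd1 and Gfap were among the 8 genes with the highest rates in excess of DMSO after chronic stress, out of genes with at least 20000 covered T positions. Scd1, a fatty acid desaturase, had 37.3, 16.8, 20.2, 28.7 and 15.7 conversions per 10000 T positions in the baseline 4sU libraries and 18.3, 36.6, 25.9 and 40.6 in the chronic ones, against 1.48 to 2.85 in DMSO libraries. Gfap, the intermediate filament of astrocytes, had 25.7, 18.1, 21.5, 18.1 and 14.5 at baseline and 15.7, 30.7, 20.6 and 36.3 after chronic stress. In both genes the groups overlapped, and the chronic libraries took the order of their overall rates. Mbp, a main protein component of central myelin, was also well labelled, with 13.4 ± 2.66 at baseline and 19.2 ± 4.60 after chronic stress (SD, n = 5 and 4). Relative to the overall rate of each library, Mbp conversion changed by 0.13 ± 0.11 on the log2 scale (adjusted p = 0.85, edgeR's quasi-likelihood test) and did not pass.

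Relative to the overall rate of each library, 20 of 8492 genes (0.236%) changed in conversion between chronic and baseline 4sU, 9 upward and 11 downward, and 605 had an unadjusted p under 0.05 (edgeR's quasi-likelihood test). In the median gene the change was -0.05 on the log2 scale. Without scaling to the overall rate 22 genes passed, 21 of them upward, and the median gene rose by 0.32. The lower 3′ UTR share and fewer covered T positions per read of the baseline 4sU libraries enter all these changes, and their part was not tested. The rises included 3 genes of myelinating oligodendrocytes, Cldn11, Mal and Cnp, and the falls Lrrc58, Trnt1, Dpy19l1 and Nr1d1.

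Cldn11 encodes the claudin of the tight junctions in central myelin, and its measured 3′ UTR lies at chr3:31163309-31164325 (mm10, plus strand). It had 2.62, 1.86, 4.40, 7.59 and 3.55 conversions per 10000 covered T positions in the baseline 4sU libraries and 11.2, 14.3, 9.47 and 20.3 in the chronic 4sU libraries. The baseline 4sU values were near the DMSO floor (2.05 to 4.22 at baseline and 2.33 to 2.83 after chronic stress), and every chronic 4sU library lay above all of them. The rates rest on 69 conversions at baseline and 1085 after chronic stress, with a mean of 33946 and 198637 covered T positions per library. Beyond the overall rate the rise was 1.36 ± 0.23 on the log2 scale (adjusted p = 2.7e-05, edgeR). It was larger than the change between DMSO groups by 1.52 (adjusted p = 0.014, edgeR), 1 of 11 genes (0.130% of 8462) called in that test. DMSO libraries give only the floor, so that test rests on the same 4sU libraries and adds no separate support, for this gene or those below.

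Mal, a proteolipid of compact myelin (3′ UTR at chr2:127633226-127634978, minus strand), had 13.3, 6.85, 10.7, 13.1 and 8.87 conversions per 10000 T positions at baseline and 18.1, 24.1, 18.6 and 34.1 after chronic stress. Again no chronic 4sU library overlapped a baseline one, and the DMSO libraries lay between 1.80 and 3.20. The rise beyond the overall rate was 0.77 ± 0.15 on the log2 scale (adjusted p = 4.4e-04, edgeR), and its difference from the change in DMSO mice was 1.00 (adjusted p = 0.014). Cnp, the myelin phosphodiesterase (chr11:100580797-100581738, plus strand), had 2.31, 3.12, 3.49, 2.73 and 2.60 at baseline, all inside the DMSO range of 2.07 to 4.13, and 4.27, 9.37, 6.81 and 13.9 after chronic stress. Its rise of 1.11 ± 0.24 (adjusted p = 0.0036, edgeR) was lost without chronic library 4 (adjusted p = 0.21). Of the 20 myelin and oligodendrocyte genes listed, all were measured, 17 lay above 0 in conversion and 3 were called, with a median change of 0.46, beside 46.7% of all 8492 genes above 0 and a median of -0.05.

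Tmem47, which encodes a membrane protein of cell junctions (chrX:81094631-81097874, plus strand), had 14.2, 5.58, 7.36, 8.97 and 4.62 at baseline and 9.68, 22.8, 20.6 and 23.8 after chronic stress. The highest baseline library exceeded the lowest chronic one. The change of 0.85 ± 0.21 (adjusted p = 0.021, edgeR) was lost in 6 of the 9 fits that left out 1 library, with an adjusted p of up to 0.33. The other named rises were less well covered. Atp6v1h, Mbd3 and Bbip1 rested on 4, 16 and 5 conversions in the baseline 4sU libraries, and each was lost in several fits that left out 1 library (highest adjusted p 0.63, 0.55 and 0.62). Lars2 rested on chronic library 4, with 64.6 against 1.29, 8.38 and 3.38 in the others, and its change of 2.27 became 0.39 without that library (adjusted p = 0.98).

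**Figure D2:**
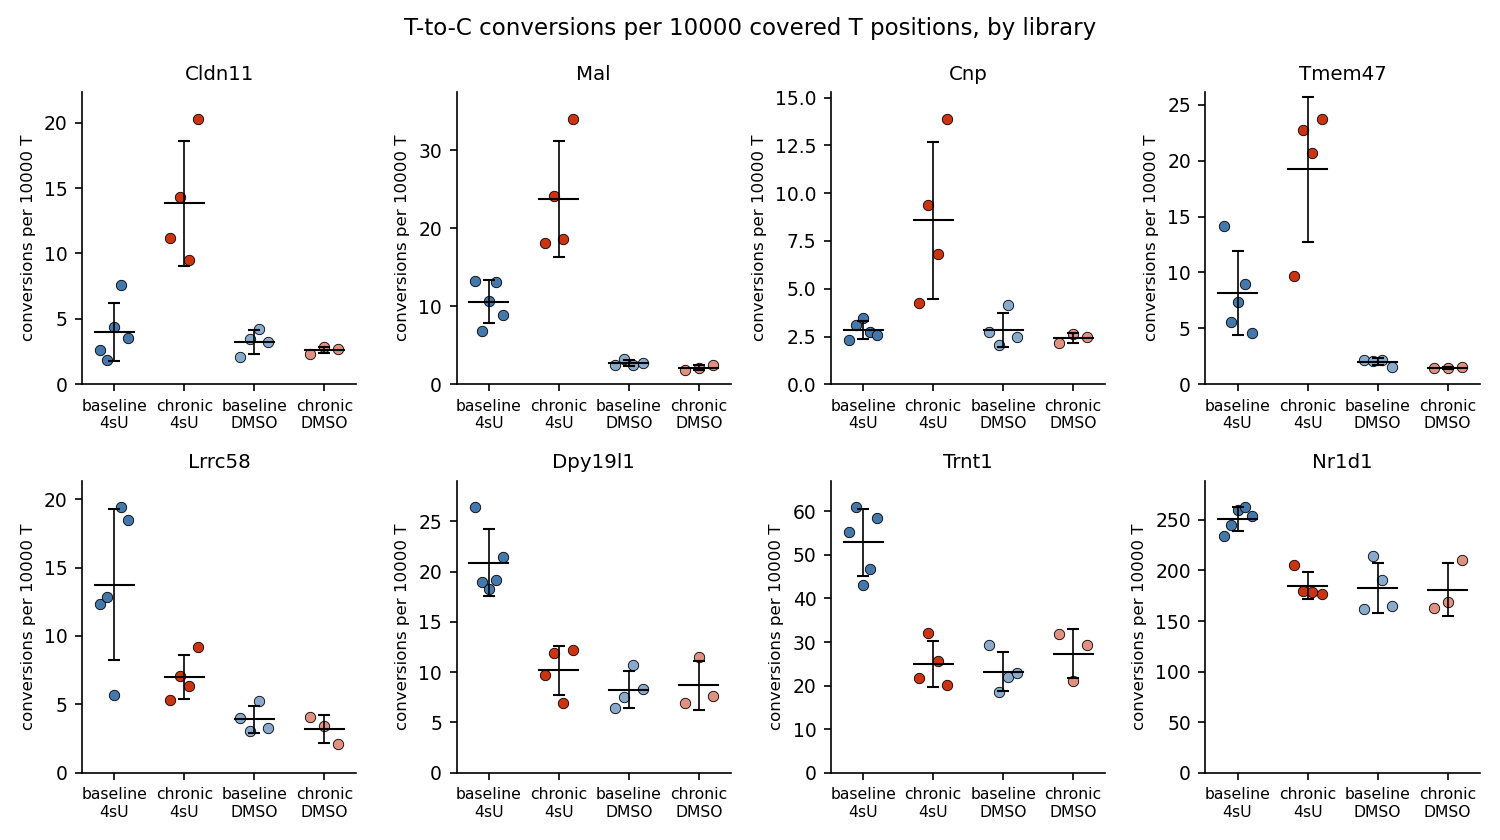
Conversions per 10000 covered T positions in the 3′ UTR of Cldn11, Mal, Cnp, Tmem47, Lrrc58, Dpy19l1, Trnt1 and Nr1d1, by group, with 1 point per library, the bar at the mean and the error bar its SD. Chronic 4sU libraries of Cldn11 and Mal lie above all others, while for Dpy19l1, Trnt1 and Nr1d1 it is the baseline 4sU libraries that lie above all other libraries.

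Lrrc58, a leucine-rich repeat gene (chr16:37881463-37888856, plus strand), had 12.4, 12.8, 5.70, 19.4 and 18.5 conversions per 10000 T positions at baseline and 5.34, 7.05, 6.37 and 9.16 after chronic stress, with baseline library 3 inside the chronic range. The DMSO libraries lay between 2.09 and 5.24. The fall beyond the overall rate was -1.40 ± 0.18 on the log2 scale (adjusted p = 2.5e-10, edgeR), and its difference from DMSO mice was -1.26 (adjusted p = 0.014). Dpy19l1, a glycosyltransferase gene (chr9:24411779-24414265, minus strand), had 26.4, 19.0, 18.3, 19.2 and 21.5 at baseline and 9.72, 11.9, 6.94 and 12.2 after chronic stress, near the 6.49 to 11.5 of the DMSO libraries. Its change was -1.42 ± 0.27 (adjusted p = 2.7e-04, edgeR). Trnt1, the enzyme that adds the CCA end to transfer RNAs (chr6:106781647-106782473, plus strand), had 55.2, 61.0, 43.0, 46.8 and 58.4 at baseline and 21.8, 32.1, 25.6 and 20.2 after chronic stress, in or just above the 18.5 to 31.7 of the DMSO libraries. Its change was -1.46 ± 0.29 (adjusted p = 5.9e-04, edgeR). The calls of Cldn11, Mal, Lrrc58, Dpy19l1 and Trnt1 held in each of the 9 fits that left out 1 library. Without scaling to the overall rate, Lrrc58, Dpy19l1, Trnt1 and Nr1d1 changed by -0.98, -1.03, -1.08 and -0.44 and did not pass.

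Nr1d1, which encodes the clock repressor REV-ERBα, had 234, 245, 259.6, 263 and 254 conversions per 10000 T positions at baseline and 205, 179.7, 178 and 177 after chronic stress over a stretch of 3′ UTR at chr11:98767932-98768218 (minus strand). The DMSO libraries, with no label, had 161 to 214, so that nearly all of this rate was present without 4sU. The change was -0.80 ± 0.17 (adjusted p = 0.0020, edgeR) and was lost without chronic library 2 or 4 (highest adjusted p 0.092). The remaining named falls were lost when single libraries were left out. Lhx8, Csrnp2 and Ythdc2 each rested on 1 baseline library, with 154, 39.1 and 53.6 conversions per 10000 T positions. Without that library their changes of -4.35, -3.26 and -2.69 became -1.46, -1.87 and 0.13 (adjusted p = 0.90, 0.73 and 0.99, edgeR). Prpf4b and Lamp3 had 41 and 26 conversions in all chronic 4sU libraries and were lost in 6 and 4 of the 9 fits.

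In expression, 8619 of 15570 genes tested (55.4%) differed between chronic and baseline 4sU libraries, 4383 higher (28.2%) and 4236 lower (27.2%), by edgeR's quasi-likelihood test at an adjusted p under 0.05. At least a 2-fold change was seen in 701 of them (4.50%), 412 higher and 289 lower. Against baseline DMSO, the same 4 chronic libraries differed in 60 of 16096 genes (0.373%), 33 higher and 27 lower, and 2003 genes had an unadjusted p under 0.05. The chronic effect in 4sU mice differed from that in DMSO mice in 6121 genes (38.0%), and chronic DMSO against baseline DMSO gave 0 calls with 913 genes at an unadjusted p under 0.05 (edgeR). Of the 3 chronic DMSO libraries, library 1 was low in markers of cortical and hippocampal excitatory neurons (mean log2 CPM 3.79, against 5.49 and 5.35). Chronic 4sU and chronic DMSO libraries, which share the stress and differ in the injected agent, differed in 22 genes (0.137%), 4 higher and 18 lower in chronic 4sU. The comparisons with baseline 4sU and with baseline DMSO share the chronic 4sU libraries. In both of them 49 of 15570 genes (0.315%) were called in the same direction. Of these, 29 were higher, all with every chronic 4sU library above every baseline library of either injection. The other 20 were lower, 19 of them with every chronic library below. These genes were picked by calls on the same libraries, so the lack of overlap adds no support of its own. The count against baseline DMSO rested on single libraries: without baseline DMSO library 4 it was 0 (1516 genes at an unadjusted p under 0.05), without baseline DMSO library 1 it was 6, and with another tool, the DESeq2 Wald test, it was 313. Without chronic libraries 3 and 4, which were low in markers of cortical and hippocampal excitatory neurons (mean log2 CPM 4.43 and 4.52, against 5.37 and 5.40 in chronic libraries 1 and 2), it was 382.

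Genes of myelin rose. All levels below are in CPM, exon counts divided by library size and scaled between libraries by TMM. Tspan2, a tetraspanin of differentiating oligodendrocytes (chr3:102734770-102772310), had 100.5, 122, 133, 116 and 118 CPM in the baseline 4sU libraries and 517, 462, 473 and 458 in the chronic 4sU libraries. It had 344, 356, 323 and 292 in baseline DMSO and 368, 306 and 309 in chronic DMSO libraries, so chronic 4sU libraries were the highest and baseline 4sU libraries the lowest. The rise was 2.05 ± 0.07 on the log2 scale against baseline 4sU (adjusted p = 5.4e-09, edgeR) and 0.54 ± 0.08 against baseline DMSO (adjusted p = 0.014). Mal (chr2:127633226-127656695) had 230.4, 291, 313, 255 and 294 CPM in baseline 4sU, 1021, 921, 899 and 904 in chronic 4sU, and 569 to 760.2 in DMSO libraries. It rose by 1.79 ± 0.08 (adjusted p = 3.5e-08) and by 0.56 ± 0.10 against baseline DMSO (adjusted p = 0.024, edgeR). Mobp, a basic protein of compact myelin, had 1000.2, 1273, 1366, 1059.6 and 1319 CPM in baseline 4sU and 3314, 2982, 3055 and 3018 in chronic 4sU, above the 1949 to 2562 of the DMSO libraries. It rose by 1.39 ± 0.09 (adjusted p = 2.1e-07) and by 0.57 ± 0.10 against baseline DMSO (adjusted p = 0.017, edgeR). The chronic effect in 4sU mice exceeded that in DMSO mice by 2.03 for Tspan2, 1.76 for Mal and 1.26 for Mobp (adjusted p = 5.6e-09, 2.9e-07 and 2.9e-06, edgeR).

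Of the 20 myelin and oligodendrocyte genes, 17 rose and 0 fell against baseline 4sU, with a median change of 1.45, beside 28.2% of all genes called higher and a median of 0.00 over all genes. Against baseline DMSO edgeR called 3 higher, beside 0.373% of all genes called, with a median change of 0.41 and all 20 above 0. There 16 were below an unadjusted p of 0.05, beside 2003 of all 16096 genes. DESeq2 called 9 higher and 0 lower, beside 313 of all genes called. These counts over all genes also stand beside each list set against baseline DMSO below. Chronic 4sU against chronic DMSO gave 1 higher and 0 lower, beside 0.137% of all genes called, with a median of 0.31 (edgeR). The mean level over the list was 7.08 to 7.61 log2 CPM in baseline 4sU, 8.46 to 8.78 in chronic 4sU, 7.94 to 8.41 in baseline DMSO and 8.17 to 8.47 in chronic DMSO libraries. Mbp rose by 0.98 ± 0.09 against baseline 4sU (adjusted p = 1.7e-06) and was 0.37 ± 0.10 higher against baseline DMSO, which did not pass (adjusted p = 0.11, edgeR). For Cldn11 the values were 1.34 ± 0.11 (adjusted p = 1.3e-06) and 0.47 ± 0.10 (adjusted p = 0.055, edgeR). Cnp rose by 0.89 ± 0.10 against baseline 4sU (adjusted p = 1.7e-05) and was at 0.41 ± 0.12 against baseline DMSO, which did not pass (adjusted p = 0.14, edgeR). With DESeq2, Mbp, Cldn11 and Cnp did pass against baseline DMSO, at 0.38, 0.48 and 0.42 (adjusted p = 0.015, 0.0021 and 0.028). More oligodendrocytes in the tissue and more RNA per oligodendrocyte cannot be told apart in bulk tissue. In the fits that left out 1 library, the calls against baseline DMSO were lost in 1 of 8 for Tspan2 (without baseline DMSO library 4, adjusted p = 0.054), in 6 for Mal and in 4 for Mobp (highest adjusted p 0.105 and 0.080).

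Oligodendrocyte precursors divide and mature into myelinating cells. Of 12 precursor genes 8 rose and 2 fell against baseline 4sU, with a median of 0.31, beside 28.2% of all genes higher and 27.2% lower. Against baseline DMSO 5 were below an unadjusted p of 0.05, and DESeq2 called 2 higher. There edgeR called 1, a rise, where 0.373% of all genes were called. That gene was Gpr17, a receptor of precursors committed to differentiate (chr18:31942999-31949636), with 54.7, 71.4, 63.0, 58.2 and 66.8 CPM in baseline 4sU and 110.3, 95.5, 98.7 and 95.6 in chronic 4sU libraries, above the 57.4 to 76.2 of the DMSO libraries. It rose by 0.70 ± 0.08 (adjusted p = 8.7e-06) and by 0.50 ± 0.09 against baseline DMSO (adjusted p = 0.017, edgeR), the latter lost in 4 of 8 fits without 1 library (highest adjusted p 0.077). Fgf1, a fibroblast growth factor, showed the same order, with 58.9 to 70.8 CPM in baseline 4sU, 121 to 139 in chronic 4sU and 82.4 to 119.6 in DMSO libraries. It rose by 0.98 ± 0.06 (adjusted p = 1.4e-07) and by 0.48 ± 0.08 against baseline DMSO (adjusted p = 0.014, edgeR), the latter lost without baseline DMSO library 1 or 4 (highest adjusted p 0.056).

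**Figure D3:**
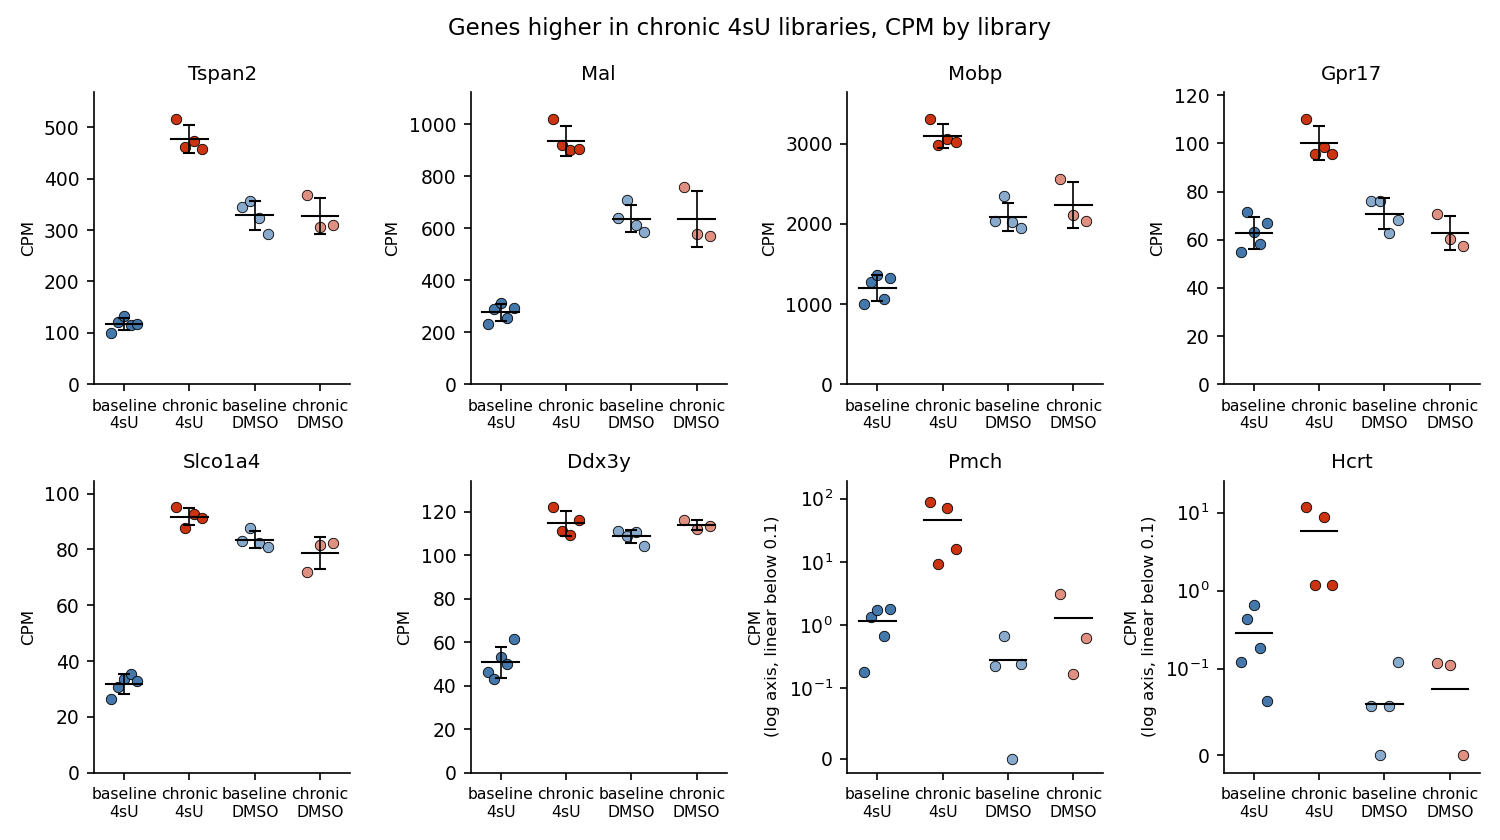
Levels in CPM of Tspan2, Mal, Mobp, Gpr17, Slco1a4, Ddx3y, Pmch and Hcrt by group, with 1 point per library, the bar at the mean and the error bar its SD; Pmch and Hcrt are drawn on a log axis that is linear below 0.1 CPM and show the mean alone. Tspan2, Mal, Mobp and Gpr17 are higher in chronic 4sU libraries than in all other groups, whereas for Slco1a4 and Ddx3y the baseline 4sU libraries (31.7 and 50.8 CPM on average) lie below 3 groups of similar level.

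Mcm3, Mcm5, Mcm6 and Uhrf1, genes that cells use to copy DNA, fell. The MCM proteins form the ring-shaped helicase that unwinds DNA at replication forks, and UHRF1 carries DNA methylation onto the new strand. Mcm5 (chr8:75109509-75128439) had 10.1, 11.7, 14.7, 11.1 and 9.65 CPM in baseline 4sU and 4.34, 4.42, 4.85 and 4.73 in chronic 4sU libraries, against 7.80, 6.76, 7.90 and 11.2 in baseline DMSO and 11.4, 11.6 and 9.96 in chronic DMSO. The 4 chronic 4sU libraries were the lowest of all 16. It fell by 1.29 ± 0.14 on the log2 scale against baseline 4sU (adjusted p = 6.9e-06) and by 0.87 ± 0.16 against baseline DMSO (adjusted p = 0.021, edgeR). Mcm3 (chr1:20802968-20820312) had 7.40, 8.66, 10.9, 10.96 and 9.03 CPM in baseline 4sU and 4.86, 3.87, 3.72 and 4.55 in chronic 4sU, and fell by 1.11 ± 0.15 (adjusted p = 4.5e-05) and fell by 1.05 ± 0.19 (adjusted p = 0.021, edgeR). Mcm6 (chr1:128331575-128359705) had 14.6, 15.7, 16.7, 17.9 and 15.8 CPM in baseline 4sU and 10.1, 9.21, 6.26 and 8.97 in chronic 4sU, and fell by 0.87 ± 0.13 (adjusted p = 7.1e-05) and fell by 0.81 ± 0.13 (adjusted p = 0.014, edgeR). No chronic 4sU library of Mcm3 or Mcm6 reached a library of the other 3 groups. Mcm3, Mcm5, Mcm6 and Uhrf1 were named by a rule that asked for no overlap with the baseline libraries. Only the chronic DMSO libraries were outside that rule. Uhrf1 (chr17:56303337-56323486) had 3.88, 5.04, 7.22, 6.33 and 4.61 CPM in baseline 4sU and 1.85, 2.27, 0.886 and 1.91 in chronic 4sU. It fell by 1.62 ± 0.26 (adjusted p = 1.8e-04) and fell by 1.56 ± 0.26 (adjusted p = 0.016, edgeR).

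The chronic effect in 4sU mice minus that in DMSO mice was -1.36 for Mcm3, -1.71 for Mcm5, -0.88 for Mcm6 and -1.72 for Uhrf1 on the log2 scale (adjusted p = 5.4e-04, 8.8e-06, 9.3e-04 and 9.8e-04, edgeR). Dtl, part of a ubiquitin ligase active in S phase, had 2.15 to 3.47 CPM in baseline 4sU, 0.925 to 1.85 in chronic 4sU and 1.79 to 4.54 in DMSO libraries. It fell by 1.21 ± 0.25 (adjusted p = 0.0012) and fell by 1.58 ± 0.26 against baseline DMSO (adjusted p = 0.014, edgeR). Top2a, a topoisomerase of dividing cells, had 1.25 to 2.92 CPM in baseline 4sU, 1.00 to 1.41 in chronic 4sU and 2.99 to 9.89 in DMSO libraries, so that both 4sU groups were below all DMSO libraries. Its change was -0.63 ± 0.27 against baseline 4sU, which did not pass (adjusted p = 0.059), and -1.91 ± 0.31 against baseline DMSO (adjusted p = 0.014, edgeR). The former was -0.75 and passed without baseline 4sU library 5 (adjusted p = 0.023, edgeR). The proliferation antigen Mki67 took the same order in its group means, with 1.56 to 3.56 CPM in chronic 4sU, 2.46 to 4.56 in baseline 4sU and 3.77 to 7.24 in DMSO libraries, and its changes of -0.37 (adjusted p = 0.25) and -1.10 (adjusted p = 0.055, edgeR) did not pass. Without chronic library 2 the latter was -1.36 and passed (adjusted p = 0.035, edgeR). With DESeq2 it was -1.09 and passed (adjusted p = 0.0032). Mcm2 fell against baseline 4sU by 1.15 ± 0.16 (adjusted p = 5.9e-05) and was at -0.52 against baseline DMSO (adjusted p = 0.18, edgeR).

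In a list of 50 DNA replication and cell cycle genes, which was drawn up after these values were seen, 17 of the 46 tested fell and 3 rose against baseline 4sU, with a median change of -0.43, beside 27.2% of all genes lower and 28.2% higher. Against baseline DMSO edgeR called 8 of 50 lower and 0 higher, beside 0.373% of all genes called, with a median of -0.44. There 25 were below an unadjusted p of 0.05, and DESeq2 called 14 lower and 0 higher. Between the DMSO groups the median change was 0.06, with 0 called. Chronic 4sU against chronic DMSO gave 7 lower and 0 higher, beside 0.137% of all genes called, with a median of -0.64 (edgeR). Those groups share the stress and differ in the injected agent. The mean level of the list was 1.80 to 2.06 log2 CPM in baseline 4sU, 1.30 to 1.54 in chronic 4sU, 1.95 to 2.27 in baseline DMSO and 2.08 to 2.30 in chronic DMSO libraries. Fewer dividing cells and less of these transcripts per cell cannot be told apart. These genes are low in the tissue, and the calls against baseline DMSO were lost without baseline DMSO library 4 for Mcm6 and Uhrf1 (adjusted p = 0.054 and 0.062), and in 2 to 5 of 8 fits without 1 library for Mcm3, Mcm5, Dtl and Top2a (highest adjusted p 0.077, 0.077, 0.060 and 0.054).

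E2F transcription factors switch on replication genes at the start of S phase through short sites near the start of transcription. To show what the promoters of replication and cell cycle genes hold, RefSeq promoters (GRCm38.p6, 250 bases before to 50 after each start) were searched on both strands for the words TTTCGCGC, TTTGGCGC, TTTCCCGC and TTTGCCGC, some of which overlap on opposite strands. At least 1 word was present in 744 of 32851 promoters (2.27%), or 704 of 27025 genes (2.61%), and in 14 of the 40 replication and cell cycle genes with a promoter in that table (35%), called or not. The list was drawn up after expression values were seen, from genes of the kind that E2F switches on, so its share reflects that choice. Any part of E2F in the changes of these genes was not tested. No word was found for Mcm2 or Top2a. Windows of 6 genes with a match are shown. Windows of 30 bases around the matches are given on the strand of the gene, 5′ to 3′, with the matching words in capitals, for Mcm3 at chr1:20820266-20820295, Mcm5 at chr8:75109347-75109376, Mcm6 at chr1:128359795-128359824, Mcm7 at chr5:138172030-138172059, Uhrf1 at chr17:56304117-56304146 and Dtl at chr1:191575534-191575563.
Mcm3: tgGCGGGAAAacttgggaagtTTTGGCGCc
Mcm5: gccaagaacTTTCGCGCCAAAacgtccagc
Mcm6: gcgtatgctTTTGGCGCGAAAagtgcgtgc
Mcm7: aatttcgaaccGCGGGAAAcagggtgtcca
Uhrf1: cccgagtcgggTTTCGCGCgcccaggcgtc
Dtl: cgtgacgtcagTTTGGCGCggagtttggcg
Mcm3 holds 2 separate matches on opposite strands, and Mcm5 and Mcm6 hold 2 words that overlap on opposite strands. The Uhrf1 window begins 196 bases before an annotated start that lies inside the gene coordinates given above. A match is a run of letters and not a measured binding site. Mcm7, with such a word, fell by 0.33 ± 0.10 against baseline 4sU (adjusted p = 0.014) and was at -0.11 against baseline DMSO (adjusted p = 0.67, edgeR), and its first call was lost when 3′ UTR reads were used in place of exon counts (adjusted p = 0.14).

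**Figure D4:**
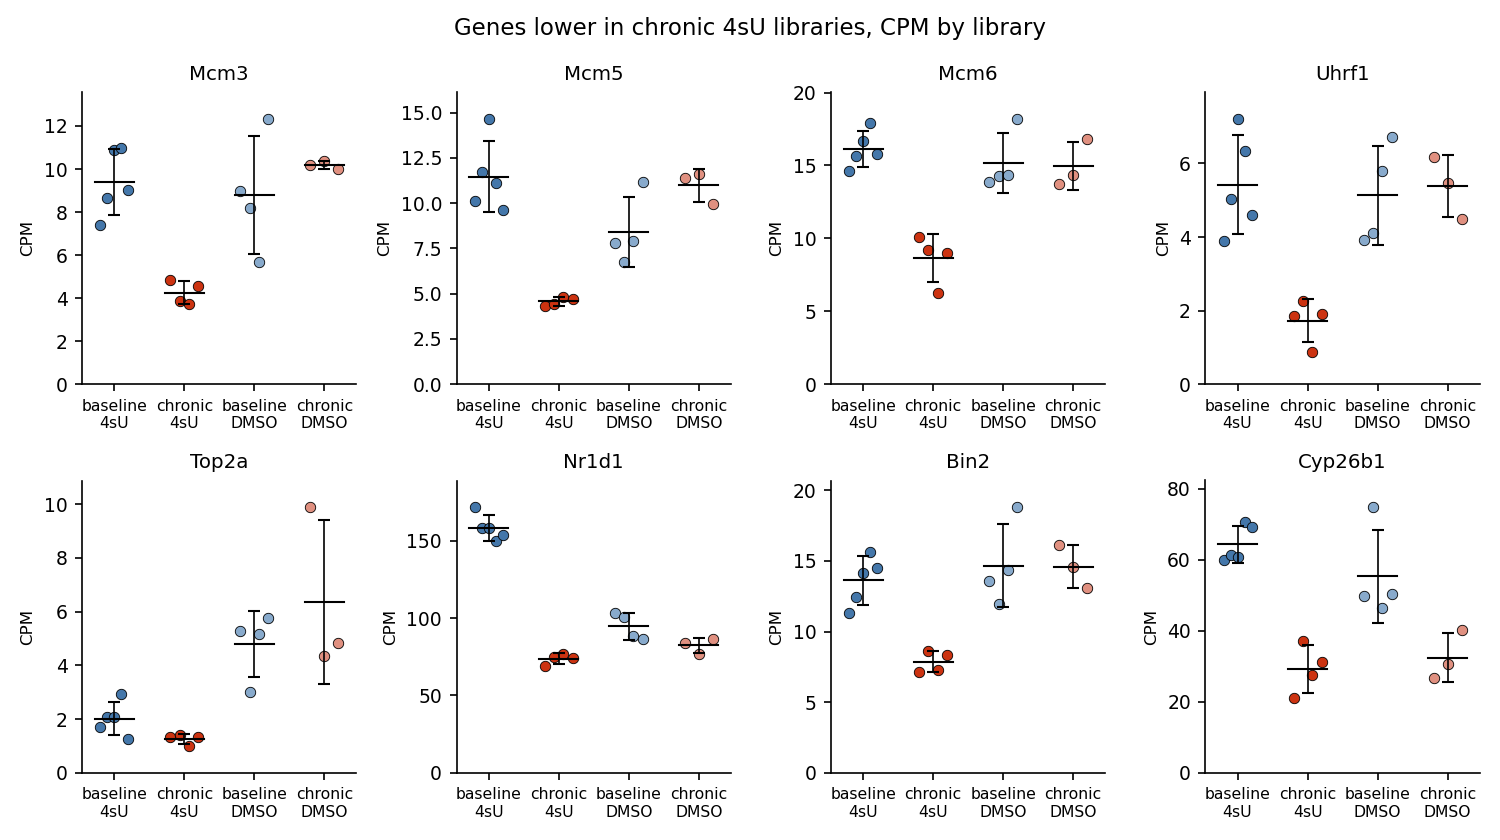
Levels in CPM of Mcm3, Mcm5, Mcm6, Uhrf1, Top2a, Nr1d1, Bin2 and Cyp26b1 by group, with 1 point per library, the bar at the mean and the error bar its SD. The 4 chronic 4sU libraries of Mcm3, Mcm5, Mcm6, Uhrf1 and Bin2 lie below every other library, whereas Cyp26b1 is low in both chronic groups and Top2a in both 4sU groups. For the genes named against both baselines, the rule of choice fixed the lack of overlap with the baseline libraries.

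Nr1d1, Per2 and Bhlhe40, genes of the circadian clock, fell against both baselines. Nr1d1, whose product represses the clock gene Arntl, had 172, 158, 159, 149.7 and 154 CPM in baseline 4sU, 68.8, 75.2, 76.9 and 74.5 in chronic 4sU, 103, 101, 88.6 and 86.3 in baseline DMSO and 83.9, 77.1 and 86.3 in chronic DMSO libraries. Chronic 4sU lay below all other libraries and baseline 4sU above them. It fell by 1.07 ± 0.06 (adjusted p = 4.4e-08) and fell by 0.36 ± 0.06 against baseline DMSO (adjusted p = 0.020, edgeR), and its chronic effect in 4sU mice minus that in DMSO mice was -0.90 (adjusted p = 9.2e-07). Per2, a core repressor of the clock, had 72.3, 64.6, 55.2, 60.5 and 59.9 CPM in baseline 4sU and 35.7, 38.8, 46.7 and 46.1 in chronic 4sU, against 51.8 to 69.5 in baseline DMSO and 46.4 to 52.6 in chronic DMSO libraries. It fell by 0.55 ± 0.10 (adjusted p = 4.4e-04) and fell by 0.52 ± 0.11 (adjusted p = 0.044, edgeR). Bhlhe40, another repressor in the clock, fell by 0.61 ± 0.05 (adjusted p = 1.0e-06) and fell by 0.37 ± 0.07 (adjusted p = 0.036, edgeR). In a list of 21 clock genes, chosen after values were seen, 7 fell and 3 rose against baseline 4sU, beside 27.2% of all genes lower and 28.2% higher. Against baseline DMSO edgeR called 3 lower, beside 0.373% of all genes called, with 12 below an unadjusted p of 0.05, and DESeq2 called 4 lower. Clock was among the rises with 0.40 ± 0.06 (adjusted p = 6.5e-05) and was at 0.07 against baseline DMSO (adjusted p = 0.64, edgeR). Per1 fell by 0.51 ± 0.10 (adjusted p = 0.0013) but was at -0.07 with 3′ UTR reads (adjusted p = 0.78), and Cry2 fell by 0.56 ± 0.10 (adjusted p = 3.2e-04, edgeR). Against baseline DMSO, Per1 and Cry2 were at -0.24 and -0.07 and did not pass (adjusted p = 0.27 and 0.77, edgeR). Without chronic libraries 3 and 4, Per1 was at -0.43 against baseline DMSO and passed (adjusted p = 0.019, edgeR). The labels do not state the time of day at tissue collection, and its part in these values was not tested. Against baseline DMSO the calls were lost in 5 of 8 fits without 1 library for Nr1d1 and in 6 for Per2 and Bhlhe40 (highest adjusted p 0.069, 0.15 and 0.13).

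Bin2, Ptprc and Fcrls, genes of microglia and other immune cells, fell against both baselines, unlike part of the microglia markers counted below. Ptprc was chosen after its value was seen. Bin2, a membrane-curving protein of microglia and leukocytes (chr15:100641082-100669503), had 11.3, 12.5, 14.1, 15.6 and 14.5 CPM in baseline 4sU and 7.17, 8.66, 7.27 and 8.38 in chronic 4sU, against 11.9 to 18.8 in DMSO libraries. It fell by 0.76 ± 0.12 (adjusted p = 1.3e-04) and fell by 0.90 ± 0.14 (adjusted p = 0.014, edgeR). Ptprc, the leukocyte antigen CD45, had 13.2 to 15.3 CPM in baseline 4sU, 7.46 to 11.97 in chronic 4sU, 15.6 to 21.2 in baseline DMSO and 10.9 to 15.2 in chronic DMSO libraries, and fell by 0.48 ± 0.13 (adjusted p = 0.0061) and fell by 0.88 ± 0.14 (adjusted p = 0.014, edgeR). Fcrls, an Fc receptor-like gene of microglia, had 32.7 to 45.1 CPM in baseline 4sU, 24.0 to 27.8 in chronic 4sU and 32.7 to 41.6 in DMSO libraries, and fell by 0.52 ± 0.10 (adjusted p = 6.3e-04) and fell by 0.54 ± 0.10 (adjusted p = 0.021, edgeR). Of 18 microglia markers, a list that holds Fcrls but not Bin2 or Ptprc, 7 fell and 3 rose against baseline 4sU. Called or not, 8 lay above 0 and 10 below, with a median of -0.14. Over all genes 27.2% were lower and 28.2% higher. Against baseline DMSO edgeR called 1 of the markers lower, beside 0.373% of all genes called, with 1 above 0 and 17 below. There 7 were below an unadjusted p of 0.05, and DESeq2 called 2 lower. Fcrls and Ptprc did not pass against baseline 4sU with 3′ UTR reads (adjusted p = 0.25 and 0.33). Against baseline DMSO, Bin2 and Ptprc were lost without baseline DMSO library 4 (adjusted p = 0.054 for both) and Fcrls in 5 of 8 fits without 1 library (highest adjusted p 0.096).

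Among the genes called against both baselines, the largest rises were of hypothalamic peptides. Pmch, the precursor of melanin-concentrating hormone (chr10:88091072-88092374), had 0.182, 1.35, 1.72, 0.669 and 1.81 CPM in baseline 4sU and 88.1, 9.21, 72.5 and 15.8 in chronic 4sU libraries, against 0 to 0.665 in baseline DMSO and 0.168 to 3.12 in chronic DMSO. Hcrt, the precursor of the orexins (chr11:100761693-100762931), had 0.0623 to 0.651 CPM in baseline 4sU, 11.7, 1.17, 8.86 and 1.20 in chronic 4sU and 0 to 0.121 in DMSO libraries. Both peptides are made by neurons of the lateral hypothalamus, which lies medial to the amygdala, and in both genes chronic libraries 1 and 3 were higher than 2 and 4. The rises were 5.37 ± 0.91 for Pmch (adjusted p = 0.0014) and 4.30 ± 0.97 for Hcrt (adjusted p = 0.0052), and 7.30 ± 1.07 and 6.47 ± 1.06 against baseline DMSO (adjusted p = 0.017 and 0.020, edgeR). Lmx1b and Lhx1, transcription factors of developing diencephalic and midbrain neurons, rose by 2.90 ± 0.45 (adjusted p = 1.2e-04) and 3.22 ± 0.45 (adjusted p = 5.9e-05). Against baseline DMSO Lmx1b rose by 1.88 ± 0.39 (adjusted p = 0.046), while Lhx1 at 1.71 ± 0.38 did not pass (adjusted p = 0.055, edgeR). Lhx1 did pass at 1.88 without chronic library 3 (adjusted p = 0.036, edgeR) and at 1.73 with DESeq2 (adjusted p = 0.0028).

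Of 22 hypothalamic and thalamic markers tested 7 rose and 2 fell against baseline 4sU, beside 28.2% and 27.2% of all genes, with a median of 0.40. Against baseline DMSO edgeR called 3 of 23 higher, beside 0.373% of all genes called, with a median of 0.84. There 11 were below an unadjusted p of 0.05, and DESeq2 called 6 higher and 0 lower. Chronic 4sU against chronic DMSO gave 0 calls among these markers, with a median of 0.47 (edgeR). Their mean level was 2.12, 1.24, 2.01 and 1.61 log2 CPM in the chronic 4sU libraries, 0.30 to 1.23 in baseline 4sU, 0.39 to 0.97 in baseline DMSO and 0.68 to 1.18 in chronic DMSO libraries. Markers of other neighbouring regions also varied between the chronic 4sU libraries. Markers of striatal medium spiny neurons stood at 4.84, 5.65, 7.13 and 6.89 log2 CPM, those of cortical and hippocampal excitatory neurons at 5.37, 5.40, 4.43 and 4.52, and choroid plexus markers at 3.001 in chronic library 3 against up to 5.18 in the others. The excitatory neuron markers varied between chronic DMSO libraries too, at 3.79, 5.49 and 5.35. Striatal markers lay at 6.11 to 6.97 there, and choroid plexus markers at 5.22 to 5.62. Without chronic libraries 3 and 4, Pmch stood at 5.42 and Hcrt at 4.46 against baseline 4sU (adjusted p = 0.0070 and 0.0078, edgeR). The part that the borders of the dissected tissue have in any of these differences was not tested. Of 14 amygdala regional markers 0 rose and 3 fell against baseline 4sU, the latter beside 27.2% of all genes, and their mean level was 4.99 to 5.19 log2 CPM in baseline 4sU and 4.44 to 4.94 in chronic 4sU libraries. Cyp26b1, an enzyme that breaks down retinoic acid and one of these markers, had 59.8 to 70.5 CPM in baseline 4sU, 21.2 to 37.0 in chronic 4sU, 46.4 to 74.8 in baseline DMSO and 26.7 to 40.1 in chronic DMSO libraries. It fell by 1.11 ± 0.13 (adjusted p = 4.1e-05) and fell by 0.92 ± 0.18 (adjusted p = 0.047, edgeR). Against baseline DMSO the calls of Pmch, Hcrt, Lmx1b and Cyp26b1 were lost in 3, 4, 7 and 7 of 8 fits without 1 library (highest adjusted p 0.077, 0.080, 0.14 and 0.11), in each case also without baseline DMSO library 4.

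The other genes named for their change against both baselines had other functions. Cpm, a membrane carboxypeptidase, rose by 1.18 ± 0.08 (adjusted p = 1.9e-07) and 0.44 ± 0.08 (adjusted p = 0.021, edgeR), and Cdh23, a cadherin of hair cell tip links, by 1.08 ± 0.21 (adjusted p = 6.9e-04) and 1.31 ± 0.22 (adjusted p = 0.014, edgeR). Cdc37l1, a co-chaperone of HSP90, rose by 1.09 ± 0.05 (adjusted p = 1.8e-08) and 0.29 ± 0.05 (adjusted p = 0.014, edgeR). Plekha1, a phosphoinositide-binding protein, rose by 1.04 ± 0.05 and 0.24 ± 0.05 (adjusted p = 3.8e-08 and 0.0498, edgeR). Trim46, which bundles microtubules at the start of the axon, fell by 0.83 ± 0.07 and fell by 0.29 ± 0.06 (adjusted p = 5.9e-07 and 0.037, edgeR), and Hs3st2, a heparan sulfate sulfotransferase, fell by 0.81 ± 0.09 and fell by 0.43 ± 0.09 (adjusted p = 9.0e-06 and 0.048, edgeR). Against baseline DMSO the calls of Plekha1 and Hs3st2 were lost in each of the 8 fits without 1 library, and those of Cpm, Cdh23, Cdc37l1 and Trim46 in 4, 2, 3 and 7 of them (highest adjusted p 0.15, 0.15, 0.072, 0.062, 0.059 and 0.15).

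Stress hormone genes gave a mixed picture. Of 29 glucocorticoid-responsive genes tested 6 rose and 5 fell against baseline 4sU, with a median of -0.01, beside 55.4% called over all genes. Against baseline DMSO, edgeR called 0, with 6 below an unadjusted p of 0.05, and DESeq2 called 1. Tsc22d3, a glucocorticoid-induced leucine zipper gene, had 44.5, 55.5, 51.5, 53.9 and 39.3 CPM in baseline 4sU and 86.6, 86.4, 98.7 and 101 in chronic 4sU, in or just above the 66.9 to 94.6 of the DMSO libraries. It rose by 0.96 ± 0.10 (adjusted p = 8.4e-06) and was at 0.23 against baseline DMSO (adjusted p = 0.44, edgeR). Fkbp5, the co-chaperone that dampens the glucocorticoid receptor, had 56.1 to 69.1 CPM in baseline 4sU and 46.0 to 64.1 in chronic 4sU, with a change of -0.14 ± 0.10 that did not pass (adjusted p = 0.27, edgeR). With 3′ UTR reads it was at -0.48 and passed (adjusted p = 4.4e-04, edgeR). Against baseline DMSO Fkbp5 was at 0.03 ± 0.20 (adjusted p = 0.97, edgeR). Sgk1, a kinase induced by the hormone, had 111, 108, 284 and 197 CPM in chronic 4sU against 86.3 to 126 in baseline 4sU, and its change of 0.84 ± 0.31 did not pass (adjusted p = 0.051, edgeR). Chronic libraries 3 and 4 were the high ones, and without them the change was 0.14 (adjusted p = 0.36, edgeR). Without chronic library 1 or 2 it was 1.00 or 1.01 and passed (adjusted p = 0.030 and 0.023), as it did with DESeq2 at 0.83 (adjusted p = 0.022). Against baseline DMSO Sgk1 was at 0.27 ± 0.41 (adjusted p = 0.84, edgeR). Nr3c1, the glucocorticoid receptor, rose by 0.44 ± 0.05 (adjusted p = 1.3e-05) and was at -0.12 against baseline DMSO (adjusted p = 0.51, edgeR). Arrdc3, an arrestin-domain gene, rose by 1.33 ± 0.11 (adjusted p = 2.3e-06) and was at 0.28 against baseline DMSO (adjusted p = 0.28), while Mt1, a metallothionein, fell by 0.62 ± 0.08 against baseline 4sU (adjusted p = 2.3e-05) and was at 0.31 ± 0.13 against baseline DMSO (adjusted p = 0.35, edgeR).

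Crh, which encodes corticotropin-releasing hormone, had 6.31 to 9.41 CPM in baseline 4sU and 7.11 to 11.6 in chronic 4sU, and its change of 0.26 ± 0.17 did not pass (adjusted p = 0.22), nor did -0.02 ± 0.21 against baseline DMSO (adjusted p = 0.98, edgeR). Of 26 stress and amygdala neuropeptide genes 9 fell and 1 rose against baseline 4sU, beside 27.2% of all genes lower and 28.2% higher. Against baseline DMSO, edgeR called 0, with 3 below an unadjusted p of 0.05, and DESeq2 called 1. Sst, the peptide of somatostatin interneurons, had 309, 320.2, 331, 338 and 285 CPM in baseline 4sU and 143, 167, 178 and 154 in chronic 4sU, within or near the 156 to 197 of the DMSO libraries. It fell by 0.95 ± 0.07 (adjusted p = 4.6e-07) and was at -0.15 against baseline DMSO (adjusted p = 0.44, edgeR). Npy fell by 0.94 ± 0.12 (adjusted p = 5.7e-05) and Crhbp, which binds corticotropin-releasing hormone, fell by 1.15 ± 0.21 (adjusted p = 6.6e-04), with -0.28 and -0.38 against baseline DMSO (adjusted p = 0.35 and 0.64, edgeR). Among GABAergic genes, Pvalb, the calcium buffer of fast-spiking interneurons, had 14.2 to 19.8 CPM in baseline 4sU, 49.3 to 70.2 in chronic 4sU, 43.3 to 46.2 in baseline DMSO and 53.8 to 62.6 in chronic DMSO libraries. It rose by 1.77 ± 0.11 (adjusted p = 1.5e-07) and was 0.44 ± 0.10 higher against baseline DMSO (adjusted p = 0.065), or 0.53 without chronic library 3 (adjusted p = 0.026, edgeR). With DESeq2 it passed against baseline DMSO at 0.45 (adjusted p = 0.0055). In the list of 26 GABAergic genes 9 rose and 5 fell against baseline 4sU, beside 28.2% and 27.2% of all genes, with a median of 0.12, and against baseline DMSO edgeR called 0, with 5 below an unadjusted p of 0.05, and DESeq2 called 1.

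Immediate early genes, the first to be transcribed after neuronal activity, were lower against baseline 4sU. Of 30 listed, 14 fell and 1 rose, with a median of -0.52 beside 27.2% of all genes falling, and against baseline DMSO edgeR called 0, with 5 below an unadjusted p of 0.05, and DESeq2 called 1, with a median of -0.14. Egr4, a transcription factor, had 29.9 to 50.5 CPM in baseline 4sU, 11.2 to 22.4 in chronic 4sU, 18.03 to 26.1 in baseline DMSO and 14.2 to 15.8 in chronic DMSO libraries, and fell by 1.29 ± 0.21 (adjusted p = 6.3e-04) with -0.36 against baseline DMSO (adjusted p = 0.48, edgeR). Nptx2, a pentraxin that clusters AMPA receptors, fell by 1.24 ± 0.14 (adjusted p = 1.8e-05) and was at -0.20 against baseline DMSO (adjusted p = 0.64, edgeR). Fos and Npas4 were at -0.38 ± 0.37 and -0.57 ± 0.34 and did not pass (adjusted p = 0.41 and 0.18, edgeR). Npas4 passed at -1.03 without chronic library 4 (adjusted p = 9.1e-04) and at -1.09 without chronic libraries 3 and 4 (adjusted p = 0.0017, edgeR). Against baseline DMSO, Fos was at 0.12 ± 0.35 and Npas4 at -0.06 ± 0.31 (adjusted p = 0.93 and 0.96, edgeR). Bdnf, a growth factor of neurons, had 20.3 and 19.9 CPM in chronic libraries 1 and 2 and 5.32 and 6.82 in chronic libraries 3 and 4, on either side of the 11.9 to 16.7 of baseline 4sU, and its change was -0.05 ± 0.40 (adjusted p = 0.93, edgeR), or 0.56 without chronic libraries 3 and 4, which passed (adjusted p = 0.0034, edgeR). Against baseline DMSO, Bdnf was at 0.43 ± 0.51 (adjusted p = 0.79, edgeR). Nptxr, a pentraxin receptor, followed the same split, with 24.5, 29.0, 7.09 and 10.9 CPM in chronic 4sU and 75.0 to 113 in baseline 4sU, a change of -2.36 ± 0.39 (adjusted p = 0.0012, edgeR) that was -1.78 without chronic libraries 3 and 4 (adjusted p = 1.7e-05, edgeR). Against baseline DMSO it was at -0.40 ± 0.49 (adjusted p = 0.79, edgeR). Snap25, a vesicle fusion protein of all neurons, was at -0.14 ± 0.08 (adjusted p = 0.14) and at -0.03 ± 0.08 against baseline DMSO (adjusted p = 0.92, edgeR).

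In further groups genes passed against baseline 4sU, and 0 were called against baseline DMSO. Of 20 endothelial and mural cell markers 13 rose and 0 fell against baseline 4sU, with a median of 0.48. Over all genes 28.2% were higher and 27.2% lower there. Against baseline DMSO edgeR called 0, with 2 below an unadjusted p of 0.05, and DESeq2 called 0, with a median of 0.01. Slco1a4, a transporter of the blood-brain barrier, had 26.3, 30.7, 33.6, 35.4 and 32.7 CPM in baseline 4sU, 95.2, 87.8, 92.8 and 91.2 in chronic 4sU, 80.8 to 87.8 in baseline DMSO and 72.0 to 82.2 in chronic DMSO libraries. Its values were 1.56 ± 0.08 (adjusted p = 3.7e-08) and 0.14 (adjusted p = 0.45, edgeR). Abcb1a, the drug efflux pump of the same cells, and Rgs5, a pericyte gene, rose by 1.06 ± 0.12 and 1.14 ± 0.06 against baseline 4sU (adjusted p = 1.1e-05 and 6.0e-08, edgeR), with Abcb1a at 0.06 and Rgs5 at 0.03 against baseline DMSO (adjusted p = 0.87 and 0.91, edgeR). The 4 Y-linked genes all rose against baseline 4sU, beside 28.2% of all genes higher, with a median of 1.04. Against baseline DMSO edgeR called 0 of them, with 1 below an unadjusted p of 0.05, and DESeq2 called 0. Ddx3y, an RNA helicase, had 42.9 to 61.4 CPM in baseline 4sU, 109 to 122 in chronic 4sU and 104 to 116 in DMSO libraries, with 1.20 ± 0.09 (adjusted p = 3.7e-07) and 0.08 (adjusted p = 0.73, edgeR). Eif2s3y, a translation initiation factor, gave 1.18 ± 0.07 (adjusted p = 5.3e-08) and 0.19 (adjusted p = 0.34, edgeR). Rps12, a ribosomal protein gene, went the other way, with 73.9 to 106 CPM in baseline 4sU, 38.7 to 45.7 in chronic 4sU and 39.7 to 49.0 in DMSO libraries, changing by -1.11 ± 0.10 (adjusted p = 1.3e-06) and by -0.10 against baseline DMSO (adjusted p = 0.71, edgeR).

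The remaining lists were counted in the same way, and 0 of their genes were called against baseline DMSO by edgeR except where stated, with 0 to 7 per list at an unadjusted p under 0.05 and 0 to 5 called by DESeq2. Against baseline 4sU, 16 of 32 presynaptic release genes fell and 6 rose (1 rose against baseline DMSO), as did 16 and 6 of 32 glutamate receptor and scaffold genes. Excitatory neuron markers fell in 8 of 20 and rose in 1, and reactive glia and injury genes fell in 7 of 21 and rose in 1. Astrocyte markers rose in 9 of 18 and fell in 5. Gfap had 1469, 773, 514 and 712 CPM in chronic 4sU and 813 to 1242 in baseline 4sU, a change of -0.17 ± 0.31 that did not pass (adjusted p = 0.67), nor did 0.12 ± 0.28 against baseline DMSO (adjusted p = 0.90, edgeR). Nuclear long noncoding RNAs rose in 7 of 12 and fell in 0, while Malat1 at 0.54 ± 0.22 did not pass (adjusted p = 0.070, edgeR). Malat1 passed without baseline 4sU library 5 at 0.68 (adjusted p = 0.022), in 1 fit over all 4 groups at 0.51 (adjusted p = 0.030) and with DESeq2 at 0.53 (adjusted p = 0.037). It was at 0.51 ± 0.19 against baseline DMSO (adjusted p = 0.30, edgeR). Rises and falls were 19 and 19 of 53 oxidative phosphorylation genes, 14 and 21 of 58 ribosomal protein genes, 7 and 12 of 24 heat shock genes, 7 and 6 of 20 cholesterol synthesis genes, and 4 and 6 of 14 corticosteroid receptor and chaperone genes. Interferon-stimulated genes rose in 3 and fell in 1 of 23, meningeal markers in 3 and 1 of 15, striatal markers in 1 and 0 of 16, replication-dependent histone genes in 2 and 1 of 4, and choroid plexus markers in 0 and 0 of 15. Mitochondrially encoded genes were not analysed here. These shares stand beside 28.2% of all genes higher and 27.2% lower.

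**Figure D5:**
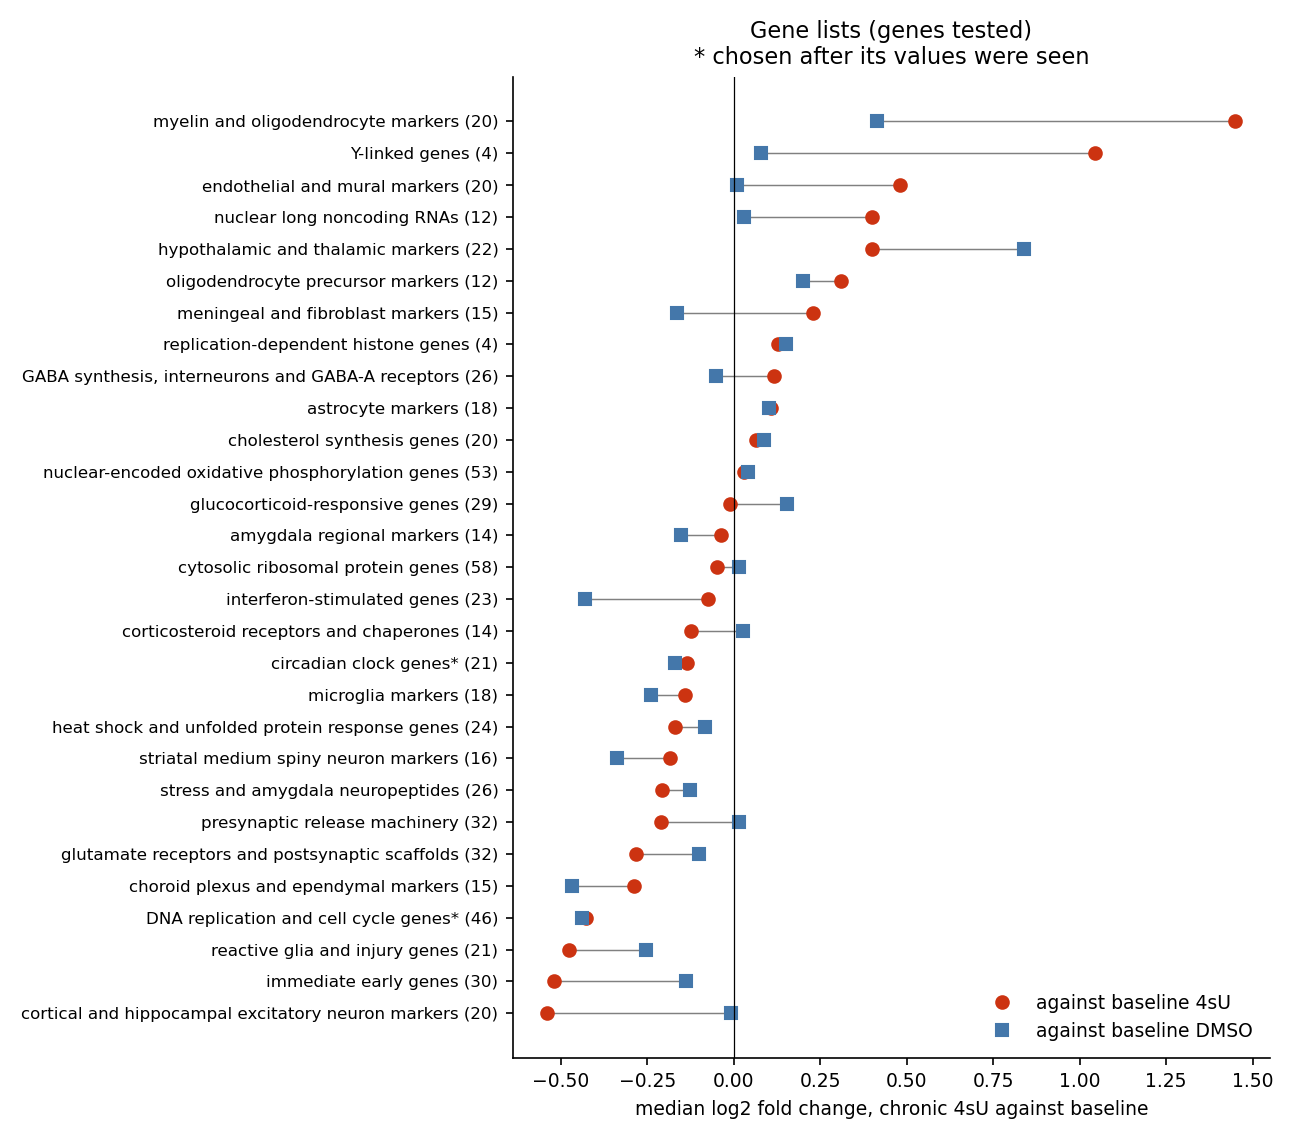
Median log2 fold change of the tested genes of each list, for chronic 4sU against baseline 4sU and against baseline DMSO, with the number of genes tested beside each list name and an asterisk on the 2 lists chosen after values were seen. The myelin list has the highest median in the first comparison (1.45) and 0.41 in the second, while the replication list is near -0.43 and -0.44 and the Y-linked list drops from 1.04 to 0.08.

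Conversion and expression could be set side by side for the genes called in conversion. Cldn11, Mal and Cnp were higher in conversion and in expression, as was Tmem47, with 90.8 to 108 CPM in baseline 4sU and 158 to 178 in chronic 4sU libraries, a rise of 0.80 ± 0.06 (adjusted p = 4.1e-07, edgeR), within the 157 to 187 of the DMSO libraries. Nr1d1 was lower in expression and in conversion relative to the overall rate, though nearly all of its conversion rate was present without 4sU. Trnt1 and Dpy19l1 also had chronic 4sU rates in or near the range of the DMSO libraries. The scaling divides the whole rate, floor included, by the overall rate of the library, and its part in these changes was not tested. Without that scaling the changes in conversion of Nr1d1, Trnt1 and Dpy19l1 did not pass. Lrrc58, lower in conversion, rose in exon counts by 0.54 ± 0.04 (adjusted p = 5.9e-07) and fell in 3′ UTR reads by 0.58 (adjusted p = 2.8e-07, edgeR). Trnt1, lower in conversion, rose in exon counts by 0.91 ± 0.08 (adjusted p = 1.2e-06, edgeR), and Dpy19l1 at 0.16 ± 0.07 did not pass (adjusted p = 0.061, edgeR), except without baseline 4sU library 3 or 4 at 0.21 and 0.19 (adjusted p = 0.023 and 0.039). Mbd3, higher in conversion, fell in expression by 0.80 ± 0.07 (adjusted p = 9.0e-07, edgeR). Scd1, whose conversion did not pass, rose from 254 ± 22.3 to 358 ± 40.3 CPM (SD, n = 5 and 4). It was 0.13 higher against baseline DMSO, which did not pass (adjusted p = 0.57, edgeR). Against baseline DMSO, Tmem47, Lrrc58, Trnt1, Dpy19l1 and Mbd3 were at 0.00, 0.17, 0.15, -0.07 and 0.10 and did not pass (adjusted p = 1.00, 0.11, 0.37, 0.77 and 0.54, edgeR). Most replication genes could not be followed in conversion, since 5 of the 50 had at least 2000 covered T positions on average. Of these 5, 0 were called, with 2 above 0, 3 below and a median of -0.18 relative to the overall rate (edgeR).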

How the data were processed

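The authors deposited whole-number exon counts per gene symbol and, for each library, a table over 3′ UTR intervals whose header, per the file headers, names slamdunk 0.4.3, with counts of covered T positions, conversions and reads. The conversion rate, a fraction, that the authors give per interval was not used, and rates were computed from the counts. The deposited CPM, by the authors, is relative to all mapped reads, so read count over CPM gave the mapped reads behind the 3′ UTR and exon shares. Named in the submitters' processing notes are mm10, featureCounts 2.0.1, HISAT2 2.1.0, cutadapt 3.1 and SAMtools 1.9. Settings for strand and multiple matches are not stated there, so overlapping and paralogous genes are uncertain.

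R 4.3.3 and edgeR 4.0.16 tested expression by robust quasi-likelihood after filterByExpr and TMM scaling, with the 9 4sU libraries in the main fit and all 16 in fits that use DMSO libraries. Conversion used 1 interval per gene, at least 2000 covered T positions on average, and an offset of covered T positions times the overall rate. Log2 changes are given ± SE; p-values are Benjamini-Hochberg adjusted over all genes tested. Single values were compared by exact permutation in SciPy 1.17.1. Fits were tested on simulated data. Of 2-fold changes in expression, 85.0% were recovered against baseline 4sU, 78% against baseline DMSO and 69% in the interaction. Of 1.5-fold changes, 71%, 68% and 39% were recovered. In conversion 8.00% of 2-fold and 40.0% of 4-fold changes were recovered.

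Groups, lists and the rule for named genes were chosen with earlier results of these data known. The rule takes the 10 largest rises and falls called against both baselines with at least 5 CPM, without predicted genes. It also asks that every chronic 4sU library lie beyond every baseline library of both injections, so for these genes that lack of overlap was fixed beforehand. To these it adds 12 fixed genes, up to 4 genes per list by p, and up to 8 conversion changes per direction. The text gives part of these. Other genes, such as Dtl, Top2a, Per1 and Ptprc, were chosen after their values were seen. No 2 libraries of a group agreed within sampling noise. DESeq2 1.42.0 served as an alternative. Some genes are not reported here.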

Additional observations from a re-analysis of the deposited data

Results flagged for a closer look

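Some genes changed with chronic stress differently in 4sU and in DMSO mice, by edgeR's test of the difference of the 2 effects. There were 6121 such genes in expression. On the log2 scale, the effect in 4sU mice minus that in DMSO mice was 2.03 for Tspan2, 1.76 for Mal and 1.26 for Mobp, and -1.36 for Mcm3, -1.71 for Mcm5, -0.88 for Mcm6, -1.72 for Uhrf1 and -0.90 for Nr1d1. In conversion relative to the overall rate the difference was 1.52 for Cldn11, 1.00 for Mal, -0.92 for Nr1d1, -1.26 for Lrrc58, -1.63 for Dpy19l1, -1.84 for Trnt1 and -7.48 for Lhx8. DMSO libraries carry no label, so their part in these conversion differences is the floor alone. The baseline 4sU libraries, which enter each of these differences, also stood apart in their 3′ UTR share (16.4 to 17.2% against 18.2 to 20.3% in the other libraries); its part was not tested.

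Single libraries lay far from the rest of their group in 17 of 276 sets of 4 or 5 values, where chance gives about 1 in 20, or 13.8. In conversions per 10000 T positions these were 154 for Lhx8 and 39.1 for Csrnp2 in baseline 4sU library 4, 53.6 for Ythdc2 in baseline 4sU library 5, 205 for Nr1d1 in chronic 4sU library 1, and 64.6 for Lars2 and 5.90 for Lhx8 in chronic 4sU library 4. In baseline DMSO they were 2.38 for Lhx8 in library 2, 12.8 for Ythdc2 in library 3, and 1.56 for Tmem47 and 4.99 for Atp6v1h in library 4. In CPM they were 14.1 for Abcb1a in baseline 4sU library 1, 1017 for Cnp in chronic 4sU library 1, 424 for Cldn11 and 74.8 for Cyp26b1 in baseline DMSO library 2, and 18.2 for Mcm6, 21.2 for Mcm7 and 101 for Per1 in baseline DMSO library 4.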

How the results depend on the processing

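Against baseline 4sU the count of 8619 genes stayed within 1.5 times under every alternative run, with 8031 to 8518 when 1 library was left out, 8733 with the DESeq2 Wald test, 6767 with 3′ UTR reads and 8472 without chronic libraries 3 and 4. The count of 60 against baseline DMSO did not: it was 14 with a replicate block, 13 with 3′ UTR reads, 0 to 68 with 1 library left out, and, in alternatives chosen after seeing the data, 313 with DESeq2 and 382 without chronic libraries 3 and 4. Conversion gave 9 calls with a replicate block and 8 to 22 with 1 library left out, against 20. The difference in overall conversion, 1.49, passed as a share of reads (0.344 percentage points) and as a median over genes (0.583); with 1 library left out it was 0.98 to 1.95. The cause of these shifts was not tested. The interaction kept its count, 6121, within 1.5 times, with 5571 under the block.

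Replicate numbers gave no pairing: same-numbered libraries correlated at -0.136, -0.006, 0.180 and -0.205, so the block is given here only. Values that changed sign without being called in the main comparison were Crh (-0.0042 without chronic libraries 3 and 4), Fos (0.25 with 3′ UTR reads), Bdnf (0.38 with 3′ UTR reads, -0.34 to 0.21 with 1 library left out, and 0.56 without chronic libraries 3 and 4, which passed, adjusted p = 0.0034) and Gfap (0.19 without chronic libraries 3 and 4, -0.54 to 0.011 with 1 left out). Of called values, Lrrc58 expression was -0.58 with 3′ UTR reads, and Ythdc2 conversion was 0.11 with a replicate block and -3.04 to 0.13 with 1 library left out. Low conversion counts limit all but the best covered 3′ UTRs.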
